A study of Mus musculus with 40 samples.

Results

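The genes of NAD synthesis described here, 10 in all, were measured in the right mouse kidney after removal of the left one: Nmrk1, Nampt, Naprt, Nadsyn1, Nmnat1, Nmnat3, Kmo, Haao, Qprt and Nadk. They are 10 of the 28467 genes of the bulk table and 10 of the 32285 genes of the nucleus table. They were chosen by name from the routes that make NAD, on account of the low Nmrk1 level of nephrectomy nuclei at 24 h. Every nephrectomy against sham value from the nuclei is therefore a description without a test. The bulk libraries came from other mice, and there the comparisons were tested.

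Cells build NAD, the hydride carrier of glycolysis, the citric acid cycle and respiration, by several routes. Nicotinamide is recycled through Nampt, nicotinic acid enters through Naprt, nicotinamide riboside is phosphorylated by Nmrk1, and tryptophan is degraded to quinolinic acid and then used by Qprt. The adenylyl transferases join the routes near their end, and Nadk phosphorylates NAD to NADP. The proximal tubule, the nephron segment that reabsorbs most of the filtrate, is rich in mitochondria and expresses much of the tryptophan route.

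All mice were male C57BL/6, 8 to 12 weeks old, anaesthetised with isoflurane and given buprenorphine and saline. In the nephrectomy groups (UNx) the left kidney was removed, and in the sham groups it was left in place after the same surgery. Bulk polyadenylated RNA of right kidney cross-sections was measured in 6 sham and 6 UNx mice at each of 24, 48 and 72 h. Single nuclei were measured in 2 sham and 2 UNx mice at 24 h, after sorting by the DNA dye DAPI, with replicate 1 of each group in batch 3 and replicate 2 in batch 4.

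Bulk libraries held 14.9 to 24.1 M estimated counts (M is 1000000). The bulk libraries of 24 h are batch 1 and those of 48 and 72 h batch 2. A profile score over 49 pseudogenes, set to 0 for the mean of the 48 h and 72 h shams and to 1 for the 24 h shams, was 0.72 to 0.915 in the 24 h UNx libraries. At 48 h it was 0.689 to 0.75 in UNx replicates 1 to 5 and 0.0147 in UNx replicate 6, so those 5 libraries stood apart from the other 19 of their batch and near the 24 h libraries. The share of counts from mitochondrially encoded genes split in the same way: it was 25.8 to 26.4% in the 5, 13.6 to 16.1% in the other libraries of batch 2 and 21.5 to 26.7% in batch 1. These 5 libraries go against their label in both measures, and whether they were exchanged or handled differently was not tested. Every 48 h value of UNx, and every difference between 48 h and another time, rests on them. The 48 h changes are therefore also given with UNx replicate 6 as the only UNx library, which is then assumed to vary like the shams. The nucleus libraries held 35.5 to 49.6 M UMIs (unique molecular identifiers, one per captured RNA) in 2641 to 5342 nuclei per mouse, and 18 barcodes occurred in more than 1 library. Cell classes are those of the authors' annotation, and 23 of its 30 classes had at least 10 nuclei in every mouse. All 8 proximal tubule markers were highest in one of the classes PTS1, PTS2 and PTS3 (segments S1, S2 and S3).

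Nmrk1 (ENSMUSG00000037847), the nicotinamide riboside kinase, lies on the plus strand of chromosome 19 at chr19:18631950-18652428 (GRCm38). Its promoter is shown because another gene starts inside it. RefSeq (GRCm38.p6) gives the window from 250 bases before to 50 bases after the Nmrk1 start as chr19:18631766-18632065, plus strand, and the capitals mark the only CCAAT box, here read on the other strand as ATTGG.
Nmrk1: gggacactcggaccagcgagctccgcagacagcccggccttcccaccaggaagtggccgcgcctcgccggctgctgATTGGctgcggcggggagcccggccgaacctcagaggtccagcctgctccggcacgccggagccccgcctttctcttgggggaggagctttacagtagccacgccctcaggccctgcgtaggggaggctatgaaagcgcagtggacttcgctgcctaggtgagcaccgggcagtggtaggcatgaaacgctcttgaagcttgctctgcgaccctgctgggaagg
The window had 23 CG pairs and 67.3% G or C, against medians of 7 and 52.7% over 32851 promoter windows of the same length. A CCAAT box on either strand was in 37.4% of all windows. CACGTG, the E-box letters bound by CLOCK and ARNTL, were not in the Nmrk1 window on either strand, and 7.15% of all windows held them. AGGTCA, the core letters of many nuclear receptor sites, was not in it either and was in 16.3% of windows. Nothing about these factors can be read from that.

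Ostf1, which encodes an adaptor protein first described in osteoclasts, runs away from Nmrk1 on the minus strand at chr19:18516137-18631823. The RefSeq starts of both genes are 202 bases apart, and their promoter windows share 298 of 300 bases. Among all windows, 7.50% shared at least 150 bases with a window of another gene on the opposite strand.

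In sham nuclei Nmrk1 was mainly a proximal tubule gene, and in UNx nuclei its level there was 75.1% lower. With the UMIs of all nuclei of a mouse summed, Nmrk1 was at 389.8 and 314.9 counts per 1000000 counts (CPM) in the sham mice and at 113.5 and 82.25 CPM in the UNx mice. Both UNx mice were far below both sham mice. The log2 ratio of the group means was -1.85, and it was -1.78 within batch 3 and -1.94 within batch 4. Of 21455 genes with at least 20 UMIs, 13.4% were lower in both UNx mice than in both sham mice and 7.14% were higher. Among the 7638 genes with a mean of at least 20 CPM, the Nmrk1 ratio was the 10th lowest. In this set 32 genes were at least 2-fold lower in both batches.

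The 3 segments of the proximal tubule showed the same order of the mice. In PTS1, Nmrk1 was at 674.4 and 466.5 CPM in sham and at 197.4 and 140.6 CPM in UNx. In PTS2 it was at 721.3 and 536.4 CPM in sham and at 181.6 and 117.1 CPM in UNx. In PTS3 it was at 546.2 and 432.9 CPM in sham and at 112.8 and 92.67 CPM in UNx. The groups did not overlap in any segment, and the log2 ratios were -1.76, -2.07 and -2.25 from S1 to S3. The share of genes lower in both UNx mice was 14.5% in PTS1, 12.9% in PTS2 and 11.0% in PTS3. Summed over the segments, Nmrk1 was at 654.4 and 478.2 CPM in sham and 168.6 and 113.8 CPM in UNx. In that sum 13.0% of 18621 genes were lower in both UNx mice and 8.92% were higher.

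Counts per nucleus in the proximal tubule showed the same order. The median proximal tubule nucleus held 7 and 6 Nmrk1 UMIs in the sham mice and 2 and 1 in the UNx mice, with median totals of 11510 and 11882 UMIs in sham and 13920 and 9816 in UNx. At least 1 Nmrk1 UMI was in 98.2% and 97.0% of sham proximal tubule nuclei and in 78.6% and 61.8% of UNx proximal tubule nuclei. With every nucleus thinned to 3000 UMIs, which left out 19 shallower nuclei of sham replicate 1 and 1 of UNx replicate 1, the shares were 82.0% and 73.3% in sham and 37.3% and 27.4% in UNx. After thinning, 4 or more Nmrk1 UMIs were in 16.1% and 8.85% of sham proximal tubule nuclei and in 0.812% and 0.310% of those of UNx. The endothelial class EC1, with median totals of 3664 and 6570 UMIs in sham and 4062 and 7751 in UNx, was taken as a background of free RNA in the droplets. Whether EC1 nuclei hold Nmrk1 RNA of their own was not tested. There the thinned shares were 10.6% and 19.0% in sham and 5.70% and 13.1% in UNx, with 64 nuclei of sham replicate 1 and 28 of UNx replicate 1 left out. In MTAL they were 24.0% and 22.3% in sham and 15.3% and 15.3% in UNx. The proximal tubule share was above those of EC1 and MTAL in each of the 4 mice. Each share was lower in UNx than in sham within each batch.

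The authors' annotation also exists in a form with separate proximal tubule clusters named for nephrectomy, which hold nearly all UNx proximal tubule nuclei. A few nuclei lie in the cluster of the other group. The 14 and 16 sham nuclei in the cluster UNx PTS1 were at 381.7 and 498.2 CPM Nmrk1, and the 756 and 369 UNx nuclei of that cluster were at 196.7 and 149.7 CPM. The 14 and 61 UNx nuclei left in PTS1 were at 241.4 and 113.6 CPM, beside 678.0 and 465.8 CPM in its sham nuclei. In both clusters the sham values were the higher ones. Nmrk1 was among the genes clustered, and these sets of nuclei are small.

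**Figure D1:**
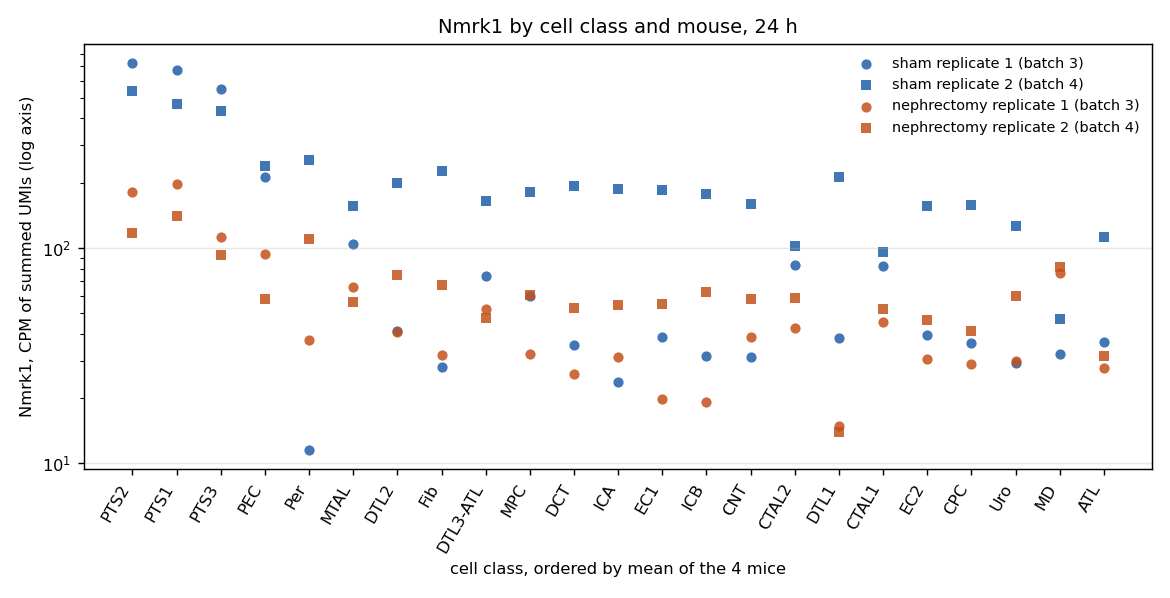
Nmrk1 level (CPM of summed UMIs, log axis) in each of the 23 cell classes, with 1 point per mouse; blue is sham, orange is nephrectomy, circles are batch 3 and squares batch 4. In PTS2, PTS1 and PTS3 both sham mice lie above both nephrectomy mice; outside them the sham mouse of batch 4 is the highest in every class but MD.

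Outside the proximal tubule the level depended on the library. Over 20 other classes Nmrk1 ranged from 11.56 to 213.1 CPM in sham replicate 1, with a median of 37.4, and from 46.93 to 256.1 CPM in sham replicate 2, with a median of 171.9. In UNx replicates 1 and 2 the medians were 32.1 and 57.0 CPM. Sham replicate 2 was the highest mouse in each of these classes but MD, and 22 of all 23 classes had a lower UNx mean. The exception was MD, the class of fewest nuclei among those used (50), where Nmrk1 rested on 3 to 6.67 UMIs per mouse. Groups were separated with UNx lower in 10 classes, the proximal tubule segments among them, and both batches gave a lower UNx value in 16. In some classes the sham mice were close to each other. In PEC, a class of 96 nuclei, they were at 213.1 and 241.2 CPM, and the UNx mice were at 94.02 and 57.95 CPM. There 14.7% of all genes were lower in both UNx mice. The shams were at 82.80 to 95.78 CPM in CTAL1 and 83.04 to 102.1 CPM in CTAL2, with the lowest UNx values at 45.24 and 42.44 CPM.

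Proximal tubule markers behaved alike outside the tubule. Their level in all other nuclei was a median 3.70% of the level inside in sham replicate 1 and 5.02% in UNx replicate 1, but 40.4% and 47.5% in the second replicates of batch 4. For Nmrk1 the same figure was 8.98% and 36.9% in sham replicates 1 and 2, and 23.7% and 49.3% in UNx replicates 1 and 2. Values outside the proximal tubule therefore moved with the batch, and the part of free RNA in them was not tested. The reverse held as well: the thick ascending limb markers Slc12a1 and Umod summed to 84.2 and 107 CPM in PTS1 of the first replicates and to 1660 and 2200 CPM in the second. Within batch 3, where markers outside were low, Nmrk1 outside was at 58.75 CPM in sham and 40.01 CPM in UNx, a log2 ratio of -0.55, and inside the ratio was -1.96. The summed level of the 8 markers was also lower in UNx nuclei of each segment, at 9720 and 11400 CPM in sham and 8440 and 9170 CPM in UNx in PTS2. The part of this in the Nmrk1 values was not tested.

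Ostf1 differed in the same direction in the proximal tubule. Its level over the 3 segments was 82.91 and 82.06 CPM in sham and 45.91 and 50.54 CPM in UNx, 41.5% lower with no overlap, and the log2 ratios were -0.85 in batch 3 and -0.70 in batch 4. In all other nuclei it was at 108.4 and 101.4 CPM in sham and 107.3 and 80.76 CPM in UNx, with log2 ratios of -0.01 in batch 3 and -0.33 in batch 4. Some of these classes were lower without overlap, among them EC2 (-0.58) and Uro (-0.55), and in others, such as DCT and CTAL2, the groups overlapped. In EC2 10.9% and in Uro 13.0% of all genes were lower in both UNx mice. Carnmt1, a methyltransferase gene 18335 bases downstream of Nmrk1, was at 28.95 and 36.66 CPM in sham proximal tubule and 33.78 and 31.97 CPM in UNx. The Carnmt1 groups overlapped. Both neighbours were looked up for their position, and no test was made in the nuclei.

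The other 9 genes of NAD synthesis did not share the Nmrk1 pattern in the proximal tubule. Their log2 ratios of UNx to sham over the 3 segments lay between -0.07 for Nmnat3 and 0.47 for Haao. Haao and Nadk were higher in both UNx mice, and for the remaining 7 the groups overlapped. That is 2 of 9 higher and 0 lower, beside 8.92% and 13.0% of all genes in these nuclei.

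Nampt (chr12:32819545-32853349, plus strand), the rate-limiting enzyme of nicotinamide salvage, was at 79.79 and 86.36 CPM in sham and 76.93 and 90.84 CPM in UNx proximal tubule. The groups overlapped. Its highest class was not the proximal tubule but DTL2, at a mean of 417 CPM over the 4 mice with a range of 331 to 644, against 139 in the next class, MTAL. The ranges of DTL2 and MTAL did not overlap.

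Naprt (chr15:75890956-75894481, minus strand), which starts NAD synthesis from nicotinic acid, was the faintest of the set. It was at 5.49 and 12.3 CPM in sham and 5.09 and 13.4 CPM in UNx, with the batches apart and the groups overlapping. Nadsyn1 (chr7:143795584-143822849, minus strand), the glutamine-dependent NAD synthetase that ends that route and the tryptophan route, was at 43.86 and 40.25 CPM in sham and 44.57 and 43.15 CPM in UNx. The groups overlapped. Its 3 highest classes were the proximal tubule segments, at 41 to 47 CPM, and the next class, Per, was at 22.6.

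Nmnat1 (chr4:149467572-149485202, minus strand), the adenylyl transferase of the nucleus, was at 20.97 and 24.48 CPM in sham and 17.94 and 31.52 CPM in UNx. Nmnat3 (chr9:98287435-98420438, plus strand), the form assigned to mitochondria, was at 162.3 and 235.0 CPM in sham and 190.6 and 187.2 CPM in UNx. Neither separated the groups, and both had opposite signs in the 2 batches. The classes differed more than the groups: Nmnat3 was at a mean of 269 CPM in PTS1, 173 in PTS2 and 120 in PTS3, and the 4-mouse ranges of these segments did not overlap. Thin limb class ATL, at 217, and PTS1 overlapped in range.

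Of the tryptophan route, Kmo (chr1:175620381-175662116, plus strand), the kynurenine hydroxylase, was at 103.7 and 51.59 CPM in sham and 107.1 and 61.31 CPM in UNx. The batches differed and the groups did not separate. Haao (chr17:83831156-83847963, minus strand), which opens the ring of 3-hydroxyanthranilate on the way to quinolinate, was at 76.23 and 69.40 CPM in sham and 106.2 and 96.07 CPM in UNx. Both UNx mice were higher, with a log2 ratio of 0.48 in batch 3 and 0.47 in batch 4. Qprt (chr7:127107114-127122226, minus strand), which turns quinolinate into nicotinic acid mononucleotide, was at 16.54 and 24.19 CPM in sham and 16.92 and 23.02 CPM in UNx. The Qprt groups overlapped. All 3 genes had the proximal tubule segments as their 3 highest classes, and the Haao level was ordered along the segments, from a mean of 54 CPM in PTS1 to 96 in PTS2 and 120 in PTS3.

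Nadk (chr4:155562378-155591001, plus strand), the cytosolic NAD kinase, was at 43.86 and 49.68 CPM in sham and 53.68 and 53.99 CPM in UNx proximal tubule. Both UNx mice were higher, and over all nuclei the same held, at 44.18 and 53.45 CPM in sham and 53.81 and 59.58 CPM in UNx. Its highest classes were the intercalated cells, with a mean of 133 CPM in ICB and 100 in ICA. The next class, Uro, was at 66 and its range did not reach that of ICA.

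**Figure D2:**
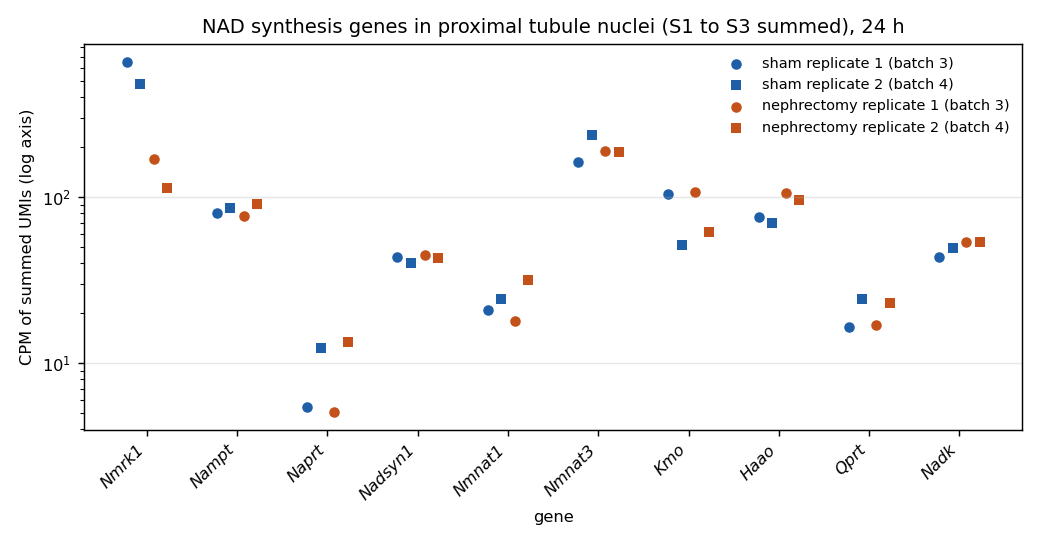
Level of the 10 genes (CPM of summed UMIs, log axis) in proximal tubule nuclei of the 3 segments, with 1 point per mouse. Nmrk1 is the one gene with a wide gap between sham (654.4 and 478.2) and nephrectomy (168.6 and 113.8); Naprt and Kmo differ by batch.

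**Figure D3:**
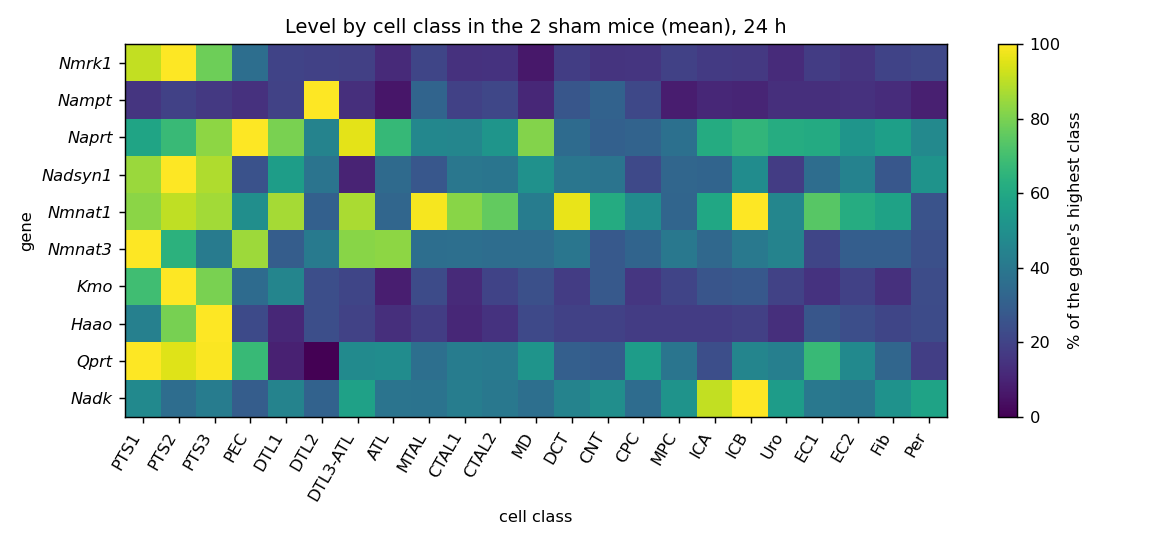
Mean level of each gene in the 2 sham mice by cell class, as a percentage of that gene's highest class (colour scale from 0 to 100). Nmrk1, Nadsyn1, Kmo, Haao and Qprt are highest in proximal tubule segments, Nampt in DTL2, and Nadk in ICB and ICA.

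Genes with a class pattern like that of Nmrk1 were sought over the 23 classes in sham mice, among 11453 genes with a mean of at least 5 CPM. The highest Pearson correlations of log2 (CPM + 1) were those of Aspa (0.945), Gstt2 (0.942), Mapk14 (0.938), Pter (0.933) and B3gat2 (0.929). Of the set, Haao (0.805, rank 166) and Kmo (0.803, rank 169) were nearest to Nmrk1. The classes share libraries and free RNA, so these are descriptions.

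In bulk kidney 3 of the 10 genes changed at a time point. In edgeR's quasi-likelihood test with Benjamini-Hochberg adjustment over all genes, all 10 were tested at each time point. Nmnat3 and Nadk rose at 24 h, Haao rose at 48 h and no gene passed at 72 h. That is 2 of 10 at 24 h, where 27.3% of 14104 genes were called, 1 of 10 at 48 h, where 32.9% were, and 0 of 10 at 72 h, where 1.71% were. At an unadjusted p under 0.05 there were 2 at 72 h, and DESeq2 called 0 there. The median log2 change of the 10 was -0.01, 0.07 and 0.00 at 24, 48 and 72 h, beside 0.01, -0.04 and 0.00 over all genes. In bulk tissue, fewer cells of a type and less RNA per cell cannot be told apart.

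Nmrk1 itself did not pass at any time. At 24 h it ranged from 43.27 to 80.80 CPM in sham (median 56.7) and from 41.69 to 61.29 CPM in UNx (median 49.2). At 48 h it ranged from 41.69 to 71.67 CPM in sham (median 58.2) and from 40.99 to 60.47 CPM in UNx (median 50.04). At 72 h it ranged from 41.50 to 58.20 CPM in sham (median 48.8) and from 34.19 to 58.73 CPM in UNx (median 46.3). The groups overlapped at all 3 times, and 4, 5 and 4 of the 6 UNx libraries were below the sham mean. The log2 change was -0.18 (SE 0.13, edgeR adjusted p = 0.326) at 24 h, -0.20 (SE 0.12, adjusted p = 0.205) at 48 h and -0.15 (SE 0.12, adjusted p = 0.571) at 72 h. The 48 h sign turned without UNx replicates 1 to 5 (0.07, SE 0.22, adjusted p = 0.905), with the profile score as a covariate (0.13, adjusted p = 0.771) and with all 36 libraries and that covariate (0.08, adjusted p = 0.907). UNx replicate 6 of 48 h was at 60.47 CPM, above the sham mean of 57.1.

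The 95% interval of the bulk change at 24 h ran from -0.46 to 0.10. The value of all nuclei at that time, -1.85, lies outside it. The 2 measurements differ in mice, in RNA (whole tissue against nuclei), in build (GRCm39 against mm10) and in counting tool. Their difference was not tested. Ostf1 in bulk at 24 h was at a median of 72.1 CPM in sham and 65.2 CPM in UNx, a log2 change of -0.16 (edgeR adjusted p = 0.0735), and was not called at 48 h (0.12) or 72 h (-0.03). Carnmt1 rose in bulk at 24 h (0.42, edgeR adjusted p = 0.00253), where 27.3% of all genes were called, and was not called later. Its mean was 16.85 CPM in the 24 h shams and 22.32 CPM in the 24 h UNx libraries, beside 21.23 and 21.52 CPM in the shams of 48 and 72 h. The profile score differed between the 24 h groups, so its part and that of nephrectomy cannot be told apart. D030056L22Rik, the next gene downstream, fell at 48 h (-0.62, edgeR adjusted p = 0.00138), where 32.9% of genes were called. That value includes UNx replicates 1 to 5. UNx replicate 6 was at 6.34 CPM, also below the lowest 48 h sham at 6.99 CPM.

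**Figure D4:**
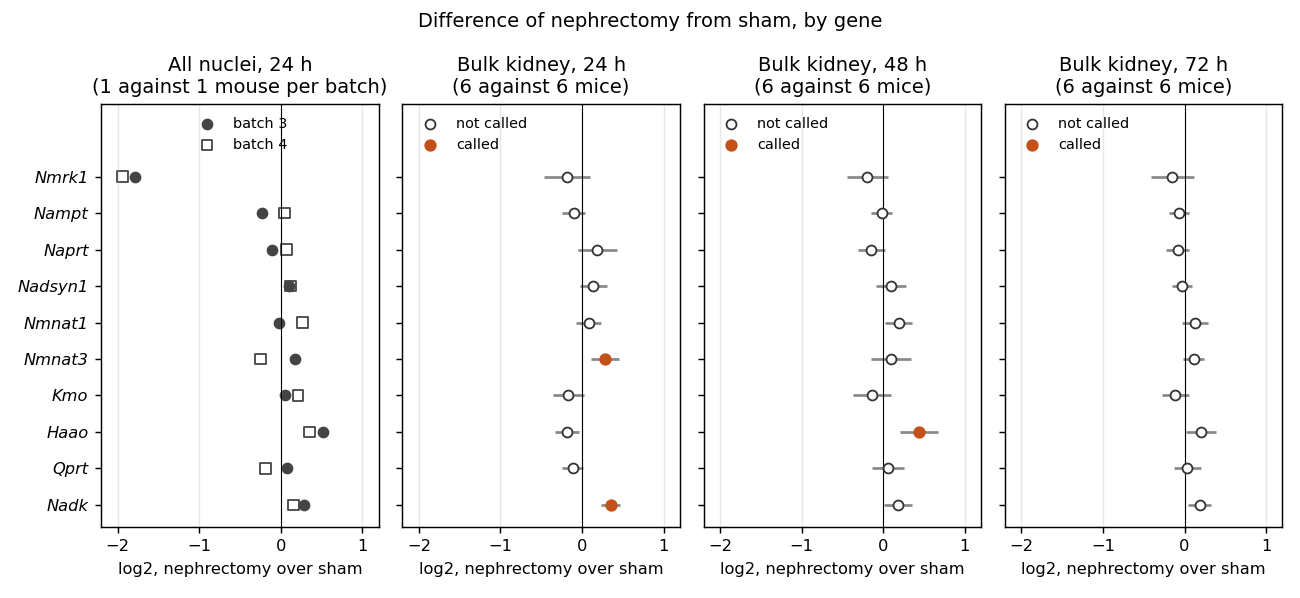
Log2 of nephrectomy over sham for the 10 genes: in all nuclei at 24 h within each batch (left, no test), and in bulk kidney at 24, 48 and 72 h with 95% intervals (6 mice per group, filled where called). Nmrk1 lies at -1.78 and -1.94 in nuclei and between -0.20 and -0.15 in bulk.

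Of the salvage and nicotinic acid genes, Nampt was at a median of 201.2 CPM in sham and 182.3 CPM in UNx at 24 h, 140.5 and 137.1 at 48 h, and 124.7 and 120.3 at 72 h. The groups overlapped at each time and the log2 changes lay between -0.10 and -0.02, none of them called. Without UNx replicates 1 to 5 the 48 h change of Nampt was 0.02. Naprt (log2 changes 0.19, -0.15 and -0.09) and Nadsyn1 (0.14, 0.09 and -0.03) overlapped too and were not called. The 48 h change of Naprt was called without UNx replicate 6 (-0.18, edgeR adjusted p = 0.0448) and with voom (-0.18, adjusted p = 0.0409), and its sign turned without UNx replicates 1 to 5 (0.08, adjusted p = 0.775). Nadsyn1 was at 0.20 without those 5 (adjusted p = 0.55).

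Nmnat3 was higher in every 24 h UNx library than the sham mean. It ranged from 9.94 to 12.07 CPM in sham (median 10.86) and from 11.48 to 15.49 CPM in UNx (median 13.4) at 24 h. The groups overlapped slightly, and the log2 change was 0.29 (SE 0.081, edgeR adjusted p = 0.0163). The 24 h shams were the lowest sham group. The sham medians of 48 and 72 h were 14.06 and 13.46 CPM, near that of the 24 h UNx libraries. The profile score differed between the 24 h groups, so its part and that of nephrectomy cannot be told apart. At 48 h the change was 0.09 and at 72 h 0.11, neither called; without UNx replicates 1 to 5 the 48 h change was 0.41 (adjusted p = 0.22). With the profile score as a covariate the 24 h change was 0.38 (adjusted p = 0.616), and in the fit of all 36 libraries with that covariate 0.16 (adjusted p = 0.285). Nmnat1 was above the sham mean in all 6 UNx libraries at 48 h (log2 change 0.19, adjusted p = 0.0724) and was not called. It was called without UNx replicate 3 (0.22, adjusted p = 0.0445) or without UNx replicate 6 (0.22, adjusted p = 0.0423) of that time, and it was 0.16 without UNx replicates 1 to 5 (adjusted p = 0.55).

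Of the tryptophan route, Haao had estimates of opposite sign at 24 and 48 h, of which only that of 48 h was called. In the nuclei of 24 h it was higher in both UNx mice, with a log2 ratio of 0.43 over all nuclei. That difference from bulk was not tested. In bulk at 24 h Haao ranged from 142.0 to 175.8 CPM in sham (median 163.3) and from 124.4 to 156.7 CPM in UNx (median 139.3), at a log2 change of -0.18 (edgeR adjusted p = 0.0591). That change was called when sham replicate 1, UNx replicate 2 or UNx replicate 3 was left out (-0.21, adjusted p of 0.0271, 0.0465 and 0.039). At 48 h it ranged from 106.2 to 126.4 CPM in sham (median 121.3) and from 113.6 to 192.0 CPM in UNx (median 170.2). There 5 of 6 UNx libraries lay above every sham library, and the log2 change was 0.44 (SE 0.11, edgeR adjusted p = 0.00726). At 72 h the medians were 116.7 and 143.6 CPM and the change 0.20 (adjusted p = 0.255), and without UNx replicate 6, the lowest of its group, it was 0.26 (adjusted p = 0.0479).

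The difference of the Haao effects was tested in 1 edgeR fit over the 36 libraries. It was 0.65 higher at 48 h than at 24 h (SE 0.13, adjusted p = 0.000243), and 37.0% of 15093 genes differed between these times. It was 0.40 higher at 72 h than at 24 h (adjusted p = 0.0772), where 4.15% of genes differed, and 0.25 lower at 72 h than at 48 h (adjusted p = 0.223), where 14.6% did. Haao was the only 1 of the 10 with a called difference between times in this test. Without UNx replicates 1 to 5 of 48 h the difference from 24 h was 0.64 (SE 0.17, edgeR adjusted p = 0.0464). The 24 h shams, of another batch, were at a higher Haao level than the other shams. The 48 h change was 0.45 with the profile score as a covariate (adjusted p = 0.346), and 0.45 with only UNx replicate 6 kept in that group (adjusted p = 0.197). Kmo (log2 changes -0.17, -0.14 and -0.11) and Qprt (-0.12, 0.06 and 0.04) overlapped between groups and were not called. Without UNx replicates 1 to 5 the 48 h changes were 0.05 for Kmo, where the sign turned, and 0.21 for Qprt.

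Nadk had the clearest bulk change. At 24 h it ranged from 114.7 to 128.4 CPM in sham (median 120.4) and from 133.5 to 161.0 CPM in UNx (median 157.2). No UNx library reached down to the sham range, and the log2 change was 0.35 (SE 0.054, edgeR adjusted p = 0.000453). At 48 h the medians were 152.4 and 177.6 CPM (log2 change 0.18, adjusted p = 0.0931, and 0.33, adjusted p = 0.201, without UNx replicates 1 to 5) and at 72 h 148.2 and 178.9 CPM (0.19, adjusted p = 0.168). Leaving out 1 library gave a call at 48 h without UNx replicate 3 (0.24, adjusted p = 0.0171) and at 72 h without UNx replicate 6 (0.23, adjusted p = 0.036). UNx libraries above the sham mean numbered 6, 5 and 5 from 24 to 72 h. The 24 h shams were the lowest sham group, and the UNx libraries of 24 h lay near the shams of 48 and 72 h. With the profile score as a covariate the 24 h change was 0.05 (adjusted p = 0.952), and in the fit of all 36 libraries with that covariate 0.28 (adjusted p = 0.0151). The score differed between the groups of 24 h with no overlap, so within that time its part and that of nephrectomy cannot be told apart.

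**Figure D5:**
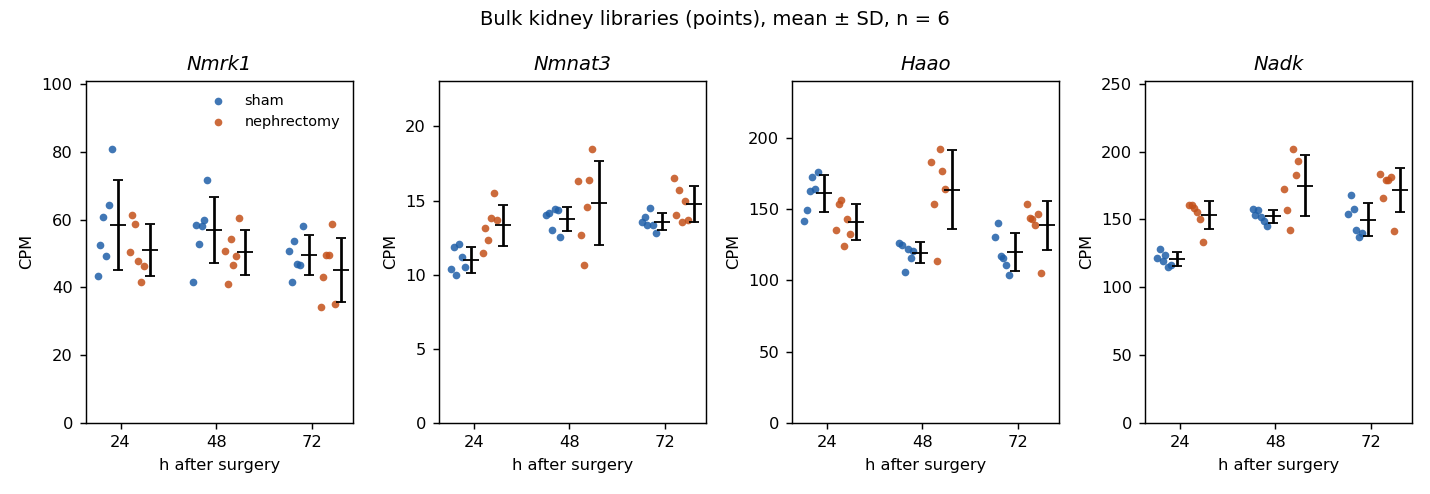
CPM of Nmrk1, Nmnat3, Haao and Nadk in each bulk library at 24, 48 and 72 h (points; blue sham, orange nephrectomy) with the mean ± SD of 6 libraries in black, on axes from 0. Nmrk1 groups overlap at all times; Nadk groups are apart at 24 h, and Haao is higher in 5 of 6 nephrectomy libraries at 48 h.

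The Nadk promoter is shown for its E-box: of the 11 windows found for 9 of the 10 genes, it alone held CACGTG. Over all promoter windows the share was 7.15%, so finding it in 1 of 11 is no result about Nadk. RefSeq lists 2 Nadk starts, and the window of the second, shown here, is chr4:155563565-155563864, plus strand (GRCm38.p6). The window of the first held no CACGTG. Capitals mark the E-box and a GC box (GGGCGG, read here on the other strand), which 35.7% of all windows held.
Nadk: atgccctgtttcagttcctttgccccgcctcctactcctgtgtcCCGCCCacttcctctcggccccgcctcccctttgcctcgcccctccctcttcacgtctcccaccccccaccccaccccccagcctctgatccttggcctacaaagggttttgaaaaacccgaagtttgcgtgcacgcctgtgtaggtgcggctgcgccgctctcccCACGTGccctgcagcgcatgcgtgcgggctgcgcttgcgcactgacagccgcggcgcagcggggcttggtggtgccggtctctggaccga
Nampt, described elsewhere as a target of the circadian clock, had no CACGTG in its window at chr12:32820085-32820384, plus strand. Bases outside that window were not searched, so nothing about the clock and Nampt can be read from that. The window had 5 GC boxes and 1 AGGTCA, in capitals here.
Nampt: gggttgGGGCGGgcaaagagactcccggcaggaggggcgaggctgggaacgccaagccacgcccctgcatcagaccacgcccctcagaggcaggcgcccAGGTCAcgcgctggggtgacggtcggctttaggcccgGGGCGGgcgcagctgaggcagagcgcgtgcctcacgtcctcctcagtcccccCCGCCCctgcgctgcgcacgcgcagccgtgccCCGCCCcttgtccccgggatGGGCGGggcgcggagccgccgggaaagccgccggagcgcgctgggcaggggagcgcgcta
Of 8 regulators of these routes and of the clock, 5 were called in bulk at 24 h, 2 at 48 h and 4 at 72 h, beside 27.3%, 32.9% and 1.71% of all genes. At 24 h Clock and Arntl rose (log2 0.29 and 0.71), and Nr1d1, Nr1d2 and Dbp fell by 0.60, 0.49 and 0.79. For Nr1d1, Nr1d2 and Dbp the sham medians of 48 and 72 h lay on the UNx side of the 24 h shams. For Clock and Arntl they lay on the other side. The profile score differed between the 24 h groups, so its part and that of nephrectomy cannot be told apart. Libraries of 1 group varied widely: the 48 h shams ranged from 16.98 to 85.49 CPM for Dbp and from 1.63 to 12.55 CPM for Arntl. At 72 h Clock and Arntl rose (0.36 and 1.45), and Nr1d2 and Dbp fell by 0.82 and 1.78. At 48 h Nr1d2 and Ppara fell by 0.71 and 0.55. Without UNx replicates 1 to 5 these 48 h changes were -0.25 (edgeR adjusted p = 0.713) and -0.32 (adjusted p = 0.57). Nampt was not called at any of these times. The hour of day of collection was not used here.

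Around these routes lie genes that branch from, consume, repair or transport NAD and its precursors. Of 43 other listed genes, 37 were tested at 24 h and 6 were called, 37 at 48 h and 15 called, and 38 at 72 h and 0 called. The 72 h count was 4 at an unadjusted p under 0.05. Their median log2 change was -0.03, 0.03 and -0.03. The called shares are to be read against the 27.3%, 32.9% and 1.71% of all genes.

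At 24 h Pnp, the purine nucleoside phosphorylase that also splits nicotinamide riboside, rose from a sham median of 32.2 CPM to 46.8 CPM (log2 0.53, SE 0.063, edgeR adjusted p = 9.4e-05). The Pnp groups did not overlap, but mice carry a near-identical copy beside it, so reads could be split between both. Aadat, which diverts kynurenine to kynurenic acid, fell from 315.7 to 207.2 CPM (log2 -0.63, adjusted p = 0.00197), also without overlap. Nt5e, an ectoenzyme that releases nucleosides from mononucleotides, rose by 0.54. Parp4, Sirt4 and Naxd fell by 0.27, 0.31 and 0.16. In each of these genes the shams of 48 and 72 h lay on the same side of the 24 h shams as UNx. Their medians were 79.5 and 81.5 CPM for Pnp and 216.7 and 229 CPM for Aadat, and for Nt5e the distance was small at 48 h. The profile score differed between the 24 h groups with no overlap, so its part and that of nephrectomy cannot be told apart here either.

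At 48 h the repair enzymes of damaged NADH and NADPH led the list. Naxd rose from a median of 42.6 to 71.4 CPM (log2 0.65, SE 0.082, edgeR adjusted p = 0.000346) and Naxe from 46.5 to 80.7 CPM (0.66, adjusted p = 0.000464). In both genes all UNx libraries were above all shams. Sirt2, an NAD-dependent deacetylase, rose by 0.52, Acmsd, which draws tryptophan carbon away from quinolinate, by 0.42, and Kyat1, a kynurenine aminotransferase, by 0.41. Enpp1, an ectoenzyme that splits nucleotides, fell by 0.42. None of the 15 was called with the profile covariate. That fit called no gene of the whole table at 48 h, so it cannot set these genes apart from others. Without UNx replicates 1 to 5 of 48 h the changes were 0.32 for Naxd, 0.23 for Naxe, 0.04 for Sirt2, 0.50 for Acmsd, 0.31 for Kyat1 and -0.30 for Enpp1.

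In proximal tubule nuclei, 40 of these 43 genes had at least 20 UMIs, and their median log2 ratio was -0.08. In 7 both UNx mice were lower, and in 6 both were higher, beside 13.0% and 8.92% of all genes. Of these, 3 genes of the tryptophan branches were chosen after their values were seen. Kyat3 was at 80.67 and 67.17 CPM in sham and 32.55 and 21.94 CPM in UNx, and Kynu, which cleaves kynurenines, at 80.87 and 115.8 CPM in sham and 57.70 and 24.34 CPM in UNx. Aadat was at 475.1 and 190.6 CPM in sham and 535.0 and 791.0 CPM in UNx. Its log2 ratio was 0.17 in batch 3 and 2.05 in batch 4, and its bulk level fell at 24 h. Kyat3 (log2 -0.10, edgeR adjusted p = 0.427) and Kynu (-0.03, adjusted p = 0.928) were not called in bulk at 24 h.

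Within bulk groups, Nmrk1 varied from library to library in ways few members shared. Over the 36 libraries, with each group's mean subtracted, the genes of closest log2 CPM among 11937 were Acot4 (Pearson 0.724), Arih2 (0.708), Fam135a (0.668), Tprkb (0.661) and Pcsk7 (0.648). Kmo (0.475, rank 151) was the nearest of the set and Nmnat3 the farthest, at -0.13. These correlations describe the 36 libraries and share their depth and batch. In the 48 h UNx group they also hold the split between replicates 1 to 5 and replicate 6.

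Per kilobase of exon, the bulk levels of the 24 h shams ordered the genes as follows. Nampt was highest at 38.9 CPM per kb, then Haao at 34.4, Nadk at 32.2, Kmo at 21.2, Qprt at 18.2 and Nmrk1 at 15.9. Naprt, Nadsyn1 and Nmnat1 lay between 5.21 and 6.39, and Nmnat3 was lowest at 2.20. In the 72 h shams Nadk was highest, at 40.0 CPM per kb, and Nmrk1 was at 13.5.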

How the data were processed

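Per the submitters' processing notes, the bulk reads were handled with FastQC 0.11.8, Salmon 1.5.0 and R 4.10 on GRCm39, and the nuclei with alevin and Seurat on mm10; the counting settings were not stated in any source read. The authors deposited estimated counts per gene: 34.1% of the bulk values and 13.9% of the nucleus values above 0 are not whole. Bulk counts were rounded. Of 28467 bulk rows, 127 carry no gene name. No 2 bulk replicates agreed within sampling noise (90 pairs). The labels give each of the 40 samples a mouse number of its own.

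Bulk libraries were tested at each time in R 4.3.3 with edgeR 4.0.16 (filterByExpr, TMM, quasi-likelihood, two-sided, Benjamini-Hochberg over all genes tested, called at an adjusted p under 0.05), with 6 libraries per group. Differences between times came from 1 fit of 36 libraries. DESeq2 1.42.0, limma 3.58.1 (voom), other filters and scalings, a replicate block, the profile score, and leaving out libraries were alternatives. The procedure was tested on simulated data. Nucleus UMIs were summed per mouse and deposited cell class, with no test, since this contrast chose the genes. No doublet caller was run. CPM is per 1000000 counts of the library or class.

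The members and all lists were chosen with earlier results of these data known. All 10 members are named; of the other NAD genes and regulators, at most 6 per time among those called, lowest p first; of likeness, the 5 highest, passing over predicted genes. Coordinates are GENCODE M21 on GRCm38 (the nucleus build), promoters RefSeq on GRCm38.p6. Positions on the bulk build were not used here.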

Additional observations from a re-analysis of the deposited data

Results flagged for a closer look

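Among 60 groups of 6 libraries (10 genes in 6 groups), 3 held a library whose gap to its nearest neighbour exceeded Dixon's critical share of the group's range, and chance alone gives about 1 in 20 such groups. Nmnat1 in sham replicate 4 of 48 h was at 16.33 CPM, the highest of a group with a median of 14.4. Kmo in sham replicate 5 of 72 h was at 96.45 CPM, below a group median of 117.7. Haao in UNx replicate 6 of 72 h was at 105.4 CPM, below a group median of 143.6, and the 72 h change of Haao was called without it. The Haao effect of nephrectomy was 0.65 higher on the log2 scale at 48 h than at 24 h in the edgeR test of that difference.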

How the results depend on the processing

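Of the 10 genes, 2, 1 and 0 were called at 24, 48 and 72 h. At 48 h the count was 2 with DESeq2 size factors, 3 with DESeq2, 5 with voom, 3 with all 36 libraries in 1 fit, and 0 with the profile covariate or with all 36 libraries and that covariate. The number of all genes called can move with the setting too, and it is given here only for the covariate. A changed count is therefore no result about the 10 genes alone. At 24 h it was 3 with DESeq2, which called Haao too (-0.18, adjusted p = 0.0346), 0 with the covariate and 1 with all 36 libraries and the covariate, and at 72 h 1 with voom. The cause was not tested. The voom calls at 48 h included Nmrk1 (-0.27, adjusted p = 0.0495). Called differences between 48 h and 24 h numbered 1, with DESeq2, voom, no mitochondrial genes or the replicate block 2 each, and 0 with the covariate; between 72 h and 24 h they numbered 0, with DESeq2 1 and with voom 2. Of the other NAD genes, 6 at 24 h became 1 with the covariate, and 15 at 48 h became 0 with the covariate or with all 36 libraries and the covariate. Over all genes the covariate left 89 calls at 24 h and 0 at 48 h.

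Leaving out 1 library gave 2 to 3, 1 to 3 and 0 to 2 of the 10 genes at 24, 48 and 72 h, 4 to 9, 11 to 16 and 0 to 1 of the other NAD genes, and 1 to 2, 0 to 1 and 0 to 1 differences (48 against 24 h, 72 against 48 h, 72 against 24 h). The count of 3 at 48 h came without UNx replicate 3 or 6, and the 2 at 72 h without UNx replicate 6. In 360 such single-gene values 9 became called and none lost a call; in 280 values under other settings 11 became called and 6 lost the call. Signs of uncalled values turned in 3 and 18 of these.

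With the replicate number as a block, 2, 1 and 0 of the 10 genes and 5, 16 and 0 of the other genes were called. Same-numbered libraries correlated at -0.332 to 0.128, with 2 of 18 pairs above 0.1, so the numbers were not taken as pairs. Nmrk1 in nuclei was at a log2 ratio of -1.78 with TMM factors over all nuclei. The nuclei come from 2 mice per group, 1 against 1 in each batch, which limits their precision. In bulk, Naprt, Nadsyn1, Nmnat1 and Nmnat3 had the fewest counts, from 149 for Naprt in 1 library.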
